A study of Mus musculus with 2 samples.

Results

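Carbonic anhydrases were followed through both arrays of a comparison of embryonic mouse ureters that lacked Rbpj in the mesenchyme with control ureters. The genes were those whose name in both scanner files was Car1, Car2, Car3, Car4, Car8, Car9, Car11, Car12, Car13 or Car14, which gave 10 genes of 30011 gene or transcript names on the array and 13 probes of 39429. Car3 was selected on its low log2 ratio of Rbpj-cKO over control in these data, so the ratios of the carbonic anhydrases are given as a description with no test. The other 9 genes were taken by family name.

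The tissue was the ureter dissected from NMRI embryos at E14.5. The mutant, Rbpj-cKO, was Tbx18(cre/+);Rbpj(fl/fl), in which the Tbx18 locus drives Cre recombinase in the mesenchyme that surrounds the epithelial tube. The control was labelled Rbpj(fl/?), with a floxed allele, a second allele that is not specified and no Cre named. The mutant therefore also carried 1 modified Tbx18 allele that the control label does not list. Replicate 1 paired male mutant RNA (AlexaFluor647, red) with male control RNA (AlexaFluor555, green) on 1 array, and replicate 2 paired female RNA with the dyes exchanged. Sex and dye orientation change together between the arrays, so their effects cannot be told apart, and how many embryos gave each RNA is not stated. With 1 array per sex, the spread between the arrays holds the differences of sex, dye and embryos together.

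Carbonic anhydrases interconvert carbon dioxide and bicarbonate at a zinc ion and so link acid-base balance, bicarbonate transport and gas exchange. Car1, Car2, Car3 and Car13 are cytosolic, Car4 is held at the cell surface by a lipid anchor, and Car9, Car12 and Car14 cross the membrane with the enzyme domain outside. Car8 and Car11 are related proteins that lack the enzyme activity. Car3 is known for a low turnover of carbon dioxide and for its abundance in slow skeletal muscle and fat, Car1 and Car2 for their abundance in red blood cells, and Car9 and Car12 as targets of the hypoxia response.

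Each probe was a strand of 60 bases spotted 4 times per array, and the values below belong to those stretches. The Car3 and Car2 probes are shown because these genes had the lowest mean ratios of the family, and the pairs of probes for Car1, Car4 and Car8 because the probes of a pair differed in signal or ratio. The first 30 of the 60 bases of each are given from 5′ to 3′.
Car3: acatgcaaccgcagtgccttttgacatgat
Car2: cctctcatccgttgtgcttactaacaaaat
Car1, brighter probe: attcacaaattttgacccatccagtctgct
Car1, dimmer probe: ggtccagccaacccaagactgcaaaaagta
Car4, brighter probe: tgacctcctccccagccccccaattaaatg
Car4, dimmer probe: tgcacctgcactggtcaaatgggaatgaca
Car8, brighter probe: atctgattcagaatagaaacattactgtgt
Car8, dimmer probe: ttagcactcctttatagtgacctaattaca

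No member's probe shared a run longer than 16 bases with a probe of another gene on either strand, and the longest such run of the Car3 probe was 14 bases. Car1, Car2, Car3 and Car13 are close relatives that lie together on chromosome 3. The probes were compared with other probes and not with the transcripts of other genes. This comparison therefore cannot show whether the signals of relatives mix on the array. The probes of Car8 (brighter) and Car12 each shared a 16-base stretch with 1 other probe. The Car9 probe had a 16-base stretch in common with 6 of 32851 RefSeq promoter windows (GRCm38.p6), the most of the 13 probes, and 5 of those windows held the stretch in capitals here.
Car9: ttgAATGCTGGGATTACAGgaatgcaccat

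Between 67.7% and 70.1% of the spots of a channel were well above background. The targeted gene was lower in the mutant on both arrays: the brighter Rbpj probe had log2 ratios of -1.13 and -0.63, and the other -0.48 and -0.37. The position of these probes with respect to the deletion is not known here. Tbx18 had 0.17 and -0.24. The arrays ran opposite ways over all 20495 genes past the filter (Pearson's r = -0.35, Spearman's rho = -0.47), which is a correlation across genes and not across samples. The dyes are stated in the labels and were kept as stated. Limma's test of the mean ratio had 0 genes with an adjusted p under 0.05 and 372 with an unadjusted p under 0.05 (1.82%).

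All 10 genes had a probe with all 4 spots well above background in all 4 channels, against 63.7% of all 30011 gene or transcript names. By probe this held for 11 of 13, against 63.5% of all probes, and the same 11 passed the filter. The exceptions were the dimmer probes of Car1 and Car4, which had 0 of 4 spots well above background in every channel. Levels are log2 normalized intensities, on which a step of 1 is a doubling. The 95th percentile of the negative control spots lay between 6.31 and 6.37 in the 4 channels.

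**Figure D1:**
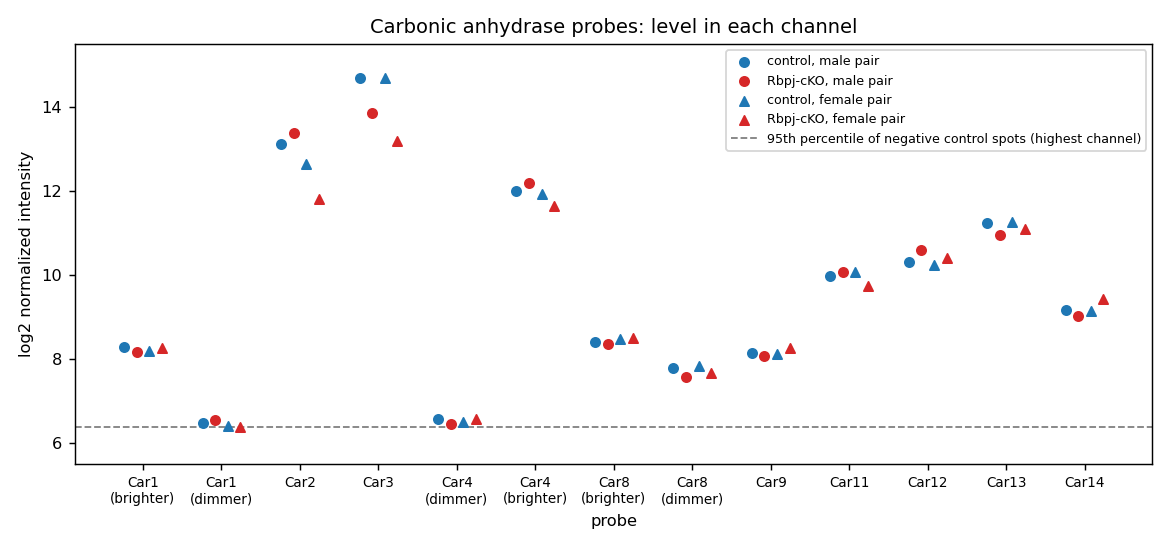
Log2 normalized intensity of the 13 carbonic anhydrase probes (x axis) in each of the 4 channels. Blue is control and red Rbpj-cKO, circles are the male pair and triangles the female pair, and the dashed line is the highest 95th percentile of the negative control spots (6.37). Both Car3 control points lie at 14.70 with both Rbpj-cKO points under them. The dimmer Car1 and Car4 probes lie near the line. Heights of different probes are not comparable.

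Car3 stood lower in Rbpj-cKO than in control in both pairs. Its probe (mm9 chromosome 3, 14871781 to 14871840) had a level of 14.70 in male control, 13.86 in male Rbpj-cKO, 14.70 in female control and 13.19 in female Rbpj-cKO. The control channels, on different arrays and dyes, thus stood within 0.0024 of each other after normalization, on which this closeness depends. The mutant channels were 0.67 apart, with no overlap between the genotypes. Car3 was chosen for its low ratio, so this lack of overlap is a description and gives no further support. On replicate 1 its log2 ratio stood at -0.83, with an SD of 0.022 over 4 spots. Replicate 2 gave -1.51, with an SD of 0.064 over 3 spots after 1 outlier spot was left out. These are 1.78-fold and 2.85-fold decreases, and both arrays together averaged -1.17 ± 0.48 (SD, n = 2 arrays), a 2.25-fold decrease. The arrays differed from each other by far more than the spots within an array did. In dissected tissue, fewer cells that make a transcript and less of it in each cell cannot be told apart.

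Among all genes, 3 had a lower mean than Car3, named here after their values were seen: Anp32a (-1.82 ± 0.75), Prap1 (-1.28 ± 1.34) and Mdfi (-1.26 ± 0.027). A second probe of Anp32a had a mean of 0.020, so its ratio belongs to a single probe. Of the 10 members, 1 (Car3) differed by 1.5-fold or more in the same direction in both pairs. Over all genes, 13 of 20495 (0.0634%) were that much lower on both and 27 (0.132%) that much higher, together 0.195%. Since Car3 was chosen for this ratio, the count says nothing about the family.

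**Figure D2:**
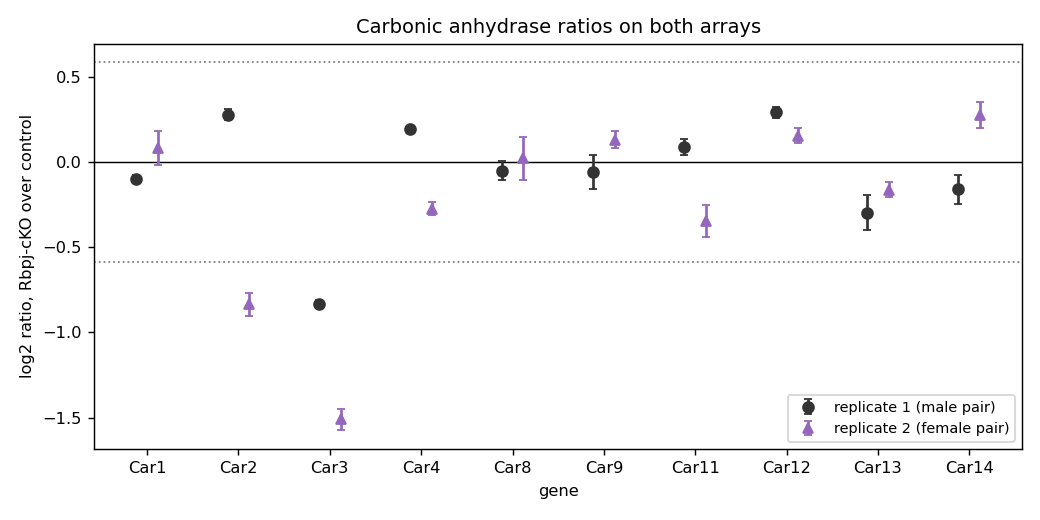
Log2 ratio of Rbpj-cKO over control for the 10 carbonic anhydrase genes, each by its brightest probe, on replicate 1 (circles, male pair) and replicate 2 (triangles, female pair). Bars are the SD over the spots of an array, and dotted lines mark 1.5-fold. Car3 lies under the lower line on both arrays and Car2 on replicate 2, while the others stay between the lines.

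Car2, the fast cytosolic enzyme of red cells and of acid-secreting epithelia, went opposite ways in the pairs. Its probe (chromosome 3, 14900206 to 14900265) had a level of 13.11 in male control, 13.39 in male Rbpj-cKO, 12.64 in female control and 11.81 in female Rbpj-cKO. Both male channels stood above both female ones, by 0.47 in control and 1.58 in Rbpj-cKO, and the genotypes overlapped. The male pair gave a log2 ratio of 0.28 and the female pair -0.83, with spot SDs of 0.031 and 0.068, and the mean was -0.28 ± 0.79 (SD, n = 2). Car2 was 1.78-fold lower in the female pair, as far as Car3 was in the male pair, yet 1.21-fold higher in the male pair. With 1 array per sex the difference between the pairs was not tested.

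Car13, a cytosolic isoform, was lower in the mutant on both arrays, by little. Its probe (chromosome 3, 14662332 to 14662391) had a level of 11.24 in male control, 10.95 in male Rbpj-cKO, 11.25 in female control and 11.09 in female Rbpj-cKO. As with Car3, the controls lay close together with both mutant channels under them. The ratios of -0.30 and -0.16 averaged -0.23 ± 0.095 (SD, n = 2), a 1.17-fold decrease that was short of 1.5-fold on either array.

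Car1, the abundant low-activity isoform of red cells, hardly differed by genotype in its brighter probe (chromosome 3, 14767486 to 14767545). The levels were 8.27 in male control, 8.17 in male Rbpj-cKO, 8.17 in female control and 8.26 in female Rbpj-cKO, so the genotypes overlapped. Its log2 ratios were -0.10 and 0.083, a mean of -0.0088 ± 0.13 (SD, n = 2). The dimmer probe (14770171 to 14770230) was not well above background in any channel, so it gives no ratio.

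On mm9 chromosome 3 the probes of Car13, Car1, Car3 and Car2 follow one another over 238 kb, with Car13 209 kb and Car1 104 kb before the Car3 probe and Car2 28.4 kb after it. Within 1 Mb to each side lay 26 other probes, of which 9 passed the filter. They stood for 7 other genes or unnamed transcripts, whose mean ratios ran from -0.28 for Car2 to 0.0072 for Rbis. Of these, 0 of 7 were at least 1.5-fold different the same way on both arrays. E2f5, a cell cycle transcription factor gene, had -0.06 and -0.21, and Lrrcc1, a centrosomal protein gene, -0.17 and 0.098. All 7 had ratios nearer to 0 than Car3 on each array, and Car2 on replicate 2 was the one past 1.5-fold on an array. Genes named here by position were given after their values were seen.

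**Figure D3:**
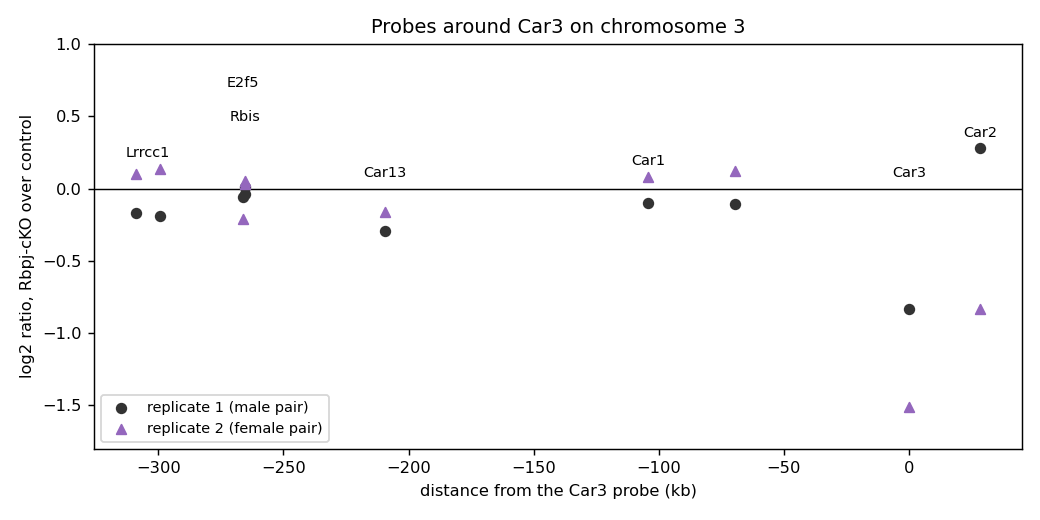
Log2 ratios of the probes past the filter around Car3 on chromosome 3, against their distance from the Car3 probe in kb. Circles are replicate 1 and triangles replicate 2. The ratios of Car3 (-0.83 and -1.51) and of Car2 on replicate 2 (-0.83) lie far under those of Lrrcc1, E2f5, Rbis, Car13 and Car1; the unlabelled points belong to a probe with no gene name.

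The membrane-bound enzymes had ratios within 1.5-fold on each array. Car12 (chromosome 9, 66614542 to 66614601) had levels of 10.30 in male control, 10.59 in male Rbpj-cKO, 10.24 in female control and 10.40 in female Rbpj-cKO. Both mutant channels stood above both controls, with ratios of 0.29 and 0.16 that averaged 0.22 ± 0.096 (SD, n = 2), a 1.17-fold increase. It was the member higher on both arrays, 1 of 10, against 16.1% of all genes. With median centring in place of loess its ratios were 0.44 and -0.024, so it was no longer higher on both.

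Car14 (chromosome 3, 95701859 to 95701918, far from the cluster) had levels of 9.17 in male control, 9.01 in male Rbpj-cKO, 9.14 in female control and 9.41 in female Rbpj-cKO. Its ratios of -0.16 and 0.28 went opposite ways, with a mean of 0.057 ± 0.31 (SD, n = 2). Car9 (chromosome 4, 43526518 to 43526577) had 8.12 in male control, 8.07 in male Rbpj-cKO, 8.12 in female control and 8.25 in female Rbpj-cKO. Its ratios of -0.059 and 0.13, which averaged 0.036 ± 0.13 (SD, n = 2), were also of opposite sign, and the first lay within its spot SD of 0.097.

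Car4, the lipid-anchored enzyme, was bright by its probe at 84779487 to 84779546 on chromosome 11, with levels of 12.005 in male control, 12.20 in male Rbpj-cKO, 11.92 in female control and 11.65 in female Rbpj-cKO. The ratios were 0.19 and -0.27, a mean of -0.041 ± 0.33 (SD, n = 2), so the genotypes overlapped. The other Car4 probe (84777667 to 84777726) stood between 6.45 and 6.56 in the 4 channels with 0 of 4 spots well above background in each. The Car4 readout thus rests on 1 of 2 probes.

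Car11 and Car8, the relatives without enzyme activity, had ratios within 1.5-fold on each array. Car11 (chromosome 7, 52958874 to 52958933) had levels of 9.97 in male control, 10.06 in male Rbpj-cKO, 10.08 in female control and 9.73 in female Rbpj-cKO, with ratios of 0.088 and -0.35 that averaged -0.13 ± 0.31 (SD, n = 2). Car8, known for binding the inositol trisphosphate receptor, had 8.40 in male control, 8.35 in male Rbpj-cKO, 8.46 in female control and 8.48 in female Rbpj-cKO by its brighter probe (chromosome 4, 8070545 to 8070604). That probe's ratios were -0.051 and 0.022, both within the spot SDs of 0.054 and 0.13. The dimmer Car8 probe (8068657 to 8068716), also past the filter, was lower on both arrays at -0.22 and -0.17, a mean of -0.19 ± 0.034 (SD, n = 2). The probes of Car8 therefore differ on whether it was lower on both arrays.

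Across the family, 2 members (Car3 and Car13) were lower on both arrays, 1 (Car12) was higher on both and 7 had opposite signs. Over all genes these shares were 14.7%, 16.1% and 69.2%, so the family's split lay near that of the array as a whole. With median centring the split was 3 lower (Car1, at -0.039 and -0.0048, joined Car3 and Car13), 0 higher and 7 opposite, against 9.83%, 11.3% and 78.9% of all genes, whose medians then stood at 0.12 on replicate 1 and -0.13 on replicate 2. With loess, 4 of the 7 members of opposite sign were lower on replicate 1 and higher on replicate 2, against 34.9% of all genes. The other 3 went the other way, against 34.3%. With loess no member was at least 1.5-fold different on both arrays in opposite directions, which held for 0.717% of all genes. The family median with loess was -0.055 on replicate 1 and -0.070 on replicate 2, against 0.0012 and 0.0046 for all genes. Apart from Car3 the mean ratios ran from -0.28 for Car2 to 0.22 for Car12.

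**Figure D4:**
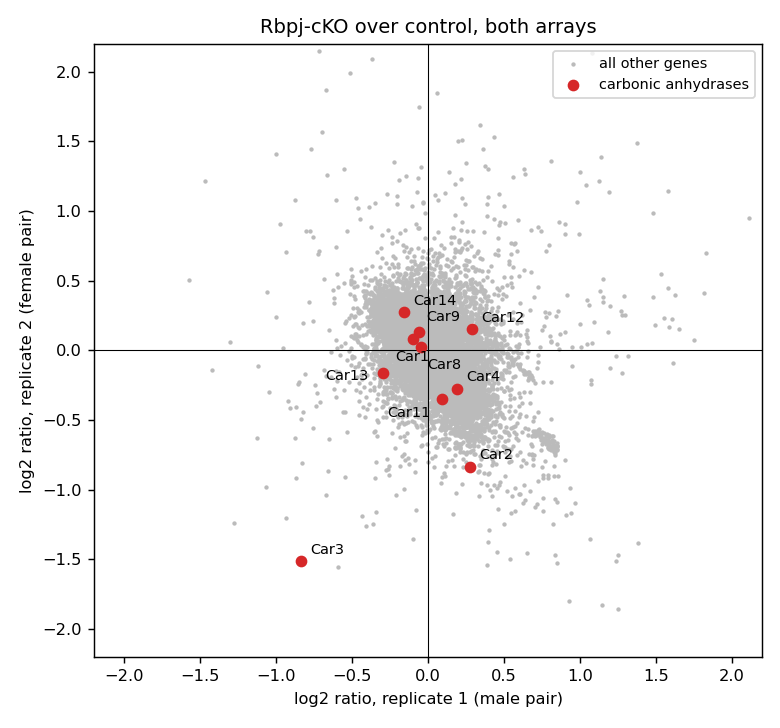
Log2 ratio on replicate 2 (y axis, female pair) against replicate 1 (x axis, male pair) for all genes past the filter (grey) and the 10 carbonic anhydrases (red). Axes end at 2.2 on either side, which leaves out 9 genes. Car3, at -0.83 and -1.51, is far below the grey cloud at lower left. Car2 is low on replicate 2 alone, where 0.46% of all genes were lower, and the other members lie within the cloud.

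The 5 named genes nearest to Car3 by the pair of log2 ratios, a likeness measured over 2 arrays, were Pax1, Aspn, Thbs4, Myocd and Mdfi. Pax1, a paired-box transcription factor gene of the axial skeleton, had -0.59 and -1.55, at a distance of 0.24. Aspn, a small proteoglycan of the matrix, had -0.93 and -1.21 (distance 0.32), and Thbs4, a matrix protein of tendon and muscle, -0.41 and -1.26 (0.49). Myocd, the coactivator of smooth muscle genes, had -0.67 and -1.04 (0.50), and Mdfi, an inhibitor of myogenic transcription factors, -1.28 and -1.24 (0.52).

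Of the other 6 carbonic anhydrases, Car7, Car10 and Car15 passed the filter, and Car5a, Car5b and Car6 did not. Car10, another inactive relative, had -0.099 and -0.11, Car7, a cytosolic enzyme, -0.030 and -0.091, and Car15 -0.0026 and 0.0061. None was 1.5-fold different on either array, and with median centring in place of loess each of the 3 had opposite signs. The transporters that move bicarbonate on had a median of 0.069 on replicate 1 and 0.021 on replicate 2 over 13 measured genes of 16. On both arrays 5 were higher and 0 lower, and 8 were of opposite sign. Over all genes these shares were 16.1%, 14.7% and 69.2%. Slc4a11, among the 5, was near 0 (0.0070 and 0.021). Under the other processing settings 4 to 6 were higher on both and 0 to 1 lower. Slc26a4, the anion exchanger pendrin, had 1.15 and 0.39, a mean of 0.77 ± 0.54 (SD, n = 2). The chloride and bicarbonate channel gene Cftr had 0.45 and 0.28, and Slc4a5, a sodium bicarbonate cotransporter, 0.86 and 0.013. The proton and lactate exporters had medians of -0.0075 and 0.021 over 8 measured genes of 12, with 1 higher on both arrays (Slc9a2, 0.11 and 0.072), 1 lower (Slc16a1, -0.033 and -0.12) and 6 of opposite sign. In each of these lists 0 genes passed limma's adjusted threshold, and 0 were at least 1.5-fold different the same way on both arrays.

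The hypoxia targets, listed beside Car9 and Car12, had medians of 0.063 and -0.14 over 19 genes. Of these 17 had opposite signs, which held for 69.2% of all genes. Higd1a was higher on both by its brighter probe (0.063 and 0.014) but not by another (-0.14 and 0.15). Egln3, an oxygen-sensing prolyl hydroxylase, was lower on both (-0.24 and -0.15). Car12 was higher on both arrays and Car9 of opposite sign, each by less than 1.5-fold.

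Markers of cells known to hold carbonic anhydrases were set beside Car3 and Car2. Of 17 skeletal muscle genes 16 were measured, all 16 with opposite signs, at a median of 0.57 on replicate 1 and -1.01 on replicate 2. Mylpf was near 0 on both (0.0024 and -0.037). Opposite differences of 1.5-fold or more were found in 8. Over all genes, 69.2% had opposite signs and 0.717% had them by 1.5-fold or more. With median centring, no background correction or either deposited value source, 15 of the 16 had opposite signs. The log2 of the summed level of the muscle genes was 15.49 in male control, 16.12 in male Rbpj-cKO, 16.49 in female control and 15.40 in female Rbpj-cKO, so the genotypes overlapped. Car3 was lower in male Rbpj-cKO, where the muscle genes were higher, and lower in female Rbpj-cKO, where they were lower. Their part in the ratio of Car3 was not tested.

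Of 12 adipocyte genes 7 were measured, with Adipoq, Cfd, Cidec, Lep and Pck1 not past the filter. Their median was -0.063 on replicate 1 and -0.044 on replicate 2, with Fabp4 (-0.098 and -0.11) and Pparg (-0.063 and -0.10) lower on both and 5 of opposite sign. The log2 of their summed level lay between 13.45 and 13.54 in control and between 13.35 and 13.55 in Rbpj-cKO. Fabp4 and Pparg had the highest levels of the list in every channel and so the most weight in this sum. Plin1, Plin4 and Retn stood between 6.70 and 7.09, not far above the negative control spots. The part of fat cells in the ratio of Car3 was not tested.

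The notochord and axial cartilage genes, 9 of 14 measured, had medians of -0.12 and -0.14, with 4 lower on both arrays, 0 higher and 5 of opposite sign. Over all genes these shares were 14.7%, 16.1% and 69.2%. Pax1, given above, was past 1.5-fold, and the cartilage collagen genes Col2a1 (-0.42 and -0.48) and Col9a1 (-0.29 and -0.48) were not. The summed level was 14.75 in male and 14.76 in female control, against 14.46 and 14.35 in male and female Rbpj-cKO, without overlap. Col9a1 and Col2a1 had the highest levels of the list in every channel and so the most weight in this sum. The summed levels of the macrophage, the neural crest, glia and neuron, the urothelial and the other carbonic anhydrase lists did not overlap either. Sox9, lower on both arrays (-0.11 and -0.19), is also in the ureteric mesenchyme list. The notochord genes T and Noto, and Pax9, Matn1 and Snorc, were not past the filter. Whether these markers had a part in the ratio of Car3 was not tested.

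The medians of the erythroid genes had the sign of the Car2 ratio on each array. So did those of the skeletal muscle, hypoxia, endothelial, ureteric mesenchyme and urothelial lists. Over all genes, 34.3% were higher on replicate 1 and lower on replicate 2. Opposite signs of either kind held for 69.2% of all genes, and opposite differences of 1.5-fold or more for 0.717%. Of the 17 erythroid entries listed 16 were measured, with medians of 0.40 and -0.67. The other entry, Epb4.2, is an older symbol of Epb42 and was not past the filter. There were 13 of opposite sign, 7 of them by 1.5-fold or more on both arrays, 0 higher on both and 3 lower on both. Those 3 were Klf1, an erythroid transcription factor gene (-0.40 and -0.42), Epb42, a red cell membrane skeleton gene (-0.17 and -0.27), and Rhag, a red cell membrane protein gene (-0.079 and -0.33), and on replicate 1 their sign was opposite to that of Car2. The summed level was 19.22 in male control, 19.97 in male Rbpj-cKO, 19.80 in female control and 18.83 in female Rbpj-cKO. Slc4a1, the chloride and bicarbonate exchanger of red cells, had 0.23 and -0.55, and Car2 0.28 and -0.83. Car1, at -0.10 and 0.083, had the opposite sign on each array. The erythroid part in the ratio of Car2 was not tested.

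Among the tissue's own cells, the 15 ureteric mesenchyme and smooth muscle genes had medians of 0.044 and -0.19 (3 higher and 5 lower on both arrays), and the 15 urothelial genes 0.000091 and -0.13 (3 higher and 5 lower). Cnn1, smooth muscle calponin, had -0.29 and -0.31, and Tbx2, a mesenchymal transcription factor gene, 0.17 and 0.52. The basal keratin gene Krt5 had -0.36 and -1.25, Foxa1, an epithelial transcription factor gene, -0.35 and -0.016, and Upk1a, a uroplakin gene, -0.16 and -0.16. The 12 collecting duct genes, a site of Car2 in the kidney, had 0.015 and 0.094, with the water channel gene Aqp3 at 0.079 and 0.68, the sodium channel gene Scnn1a at -0.14 and -0.24, and Avpr2 at 0.24 and 0.10. Endothelial genes had 0.12 and -0.019 (Vwf 0.40 and 0.36 by its brighter probe and -0.019 and 0.27 by another, Tek -0.14 and -0.39, Emcn 0.11 and 0.086). Macrophage genes had 0.46 and 0.018, 6 of 11 higher on both and 0 lower (2 higher with median centring and 4 with the median over probes). Among them by their brightest probes were the chemokine receptor gene Cx3cr1 (0.65 and 0.064), Adgre1 (0.49 and 0.21) and the growth factor receptor gene Csf1r (0.46 and 0.044). Other probes of Csf1r had 0.32 and -0.29, and 0.24 and -0.17. Those of Cx3cr1 had 0.41 and -0.22, and 0.61 and 0.15, and that of Adgre1 had 0.28 and 0.18. Neural crest, glia and neuron genes had 0.39 and 0.74, with 11 of 14 higher on both and 0 lower, against 16.1% and 14.7% of all genes. The granin gene Chga had 2.11 and 0.95, a mean of 1.53 ± 0.82 (SD, n = 2). Chgb, another granin gene, had 2.83 and 0.77 (1.80 ± 1.46), and Dbh 1.83 and 0.70 (1.26 ± 0.80). The part of these lists in the ratios of the carbonic anhydrases was not tested.

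**Figure D5:**
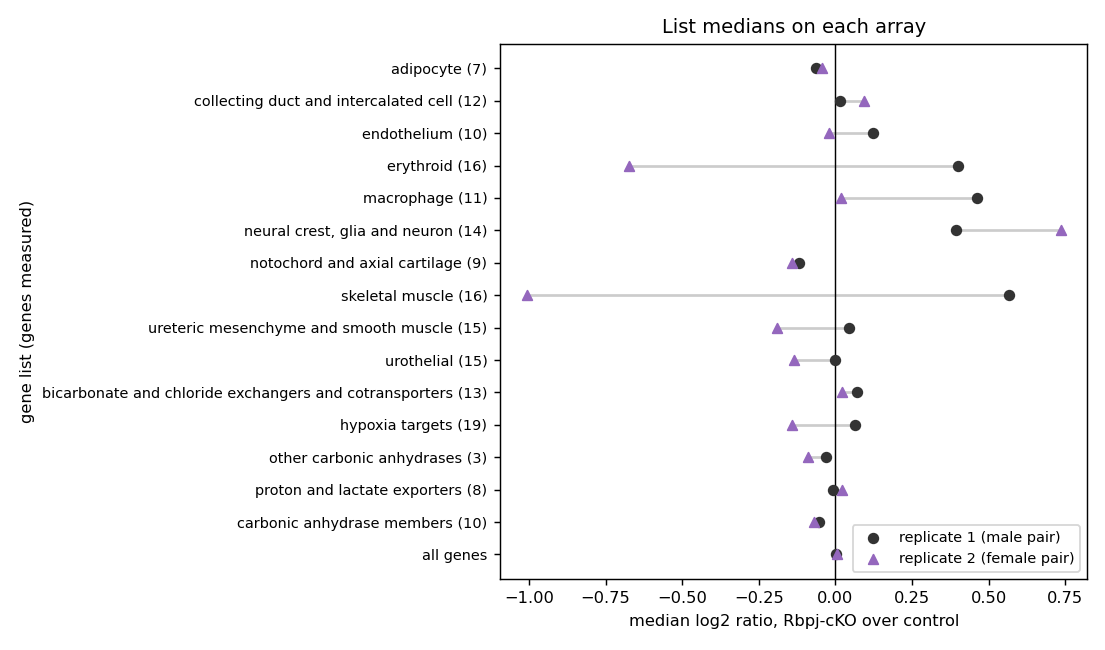
Median log2 ratio of Rbpj-cKO over control for each gene list on replicate 1 (circles) and replicate 2 (triangles), with the number of genes measured in brackets and the carbonic anhydrase members and all genes at the bottom. Skeletal muscle (0.57 and -1.01) and erythroid genes (0.40 and -0.67) have the widest gaps between the arrays, and the carbonic anhydrases sit near 0 on both.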

How the data were processed

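Labelling started from 150 ng of total RNA, per the labels' protocols. For every spot and dye the mean intensity and the local background median intensity were deposited, linear and not normalized. Agilent Feature Extraction (version 10.7.3.1 in the submitters' processing notes) also gave the deposited processed intensity of each dye and the deposited log10 ratio of red over green. Further deposited columns are flags, other values of 0 or 1. The authors' series table holds values that match a signed linear fold change (other unit), and how it was made is not known here. Probe coordinates are on mm9, per the file headers.

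Background was corrected with normexp (offset 50) and ratios normalized by loess within arrays, control spots at weight 0, in limma 3.58.1 under R 4.3.3. Outlier spots were left out (3.57% and 3.90%), 0 spots were saturated, and a probe's 4 spots averaged. Replicate 2 was turned by its dye labels. Channel levels come from Aquantile scaling after loess. A probe passed with at least 2 spots well above background in 1 channel on each array. The brightest of a gene's probes stood for it. Names came from RefSeq accessions for 28328 probes, from the symbol for 3400, and from the file for 7701. Each mean ratio was tested against 0 (lmFit, eBayes, two-sided, Benjamini-Hochberg over 20495 genes, 1 residual degree of freedom). The procedure was tested on simulated data with independent noise on each array and no effect of dye or sex. That simulation therefore does not cover the opposite run of the 2 real arrays. Number of arrays, 2, limits the precision.

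Members and gene lists were chosen with earlier results of these data known. All members are named, as are up to 3 genes per list with the largest mean ratio of equal sign on both arrays, the 5 genes nearest to Car3, Rbpj and Tbx18; others were named after their values were seen. The alternatives were background correction, normalization, value source, filter, outlier spots, probe choice, variance moderation and each replicate alone. No mm9 genome was used here, so the exon or UTR of a probe is not given.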

Additional observations from a re-analysis of the deposited data

Results flagged for a closer look

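The male and the female pair had opposite signs for several genes and lists, each from 1 array per sex, with the dyes exchanged between them, so the differences were not tested. As the male log2 ratio less the female log2 ratio, the gap was 1.11 for Car2, 0.466 for Car4 and 0.435 for Car11. It was -0.436 for Car14, -0.19 for Car9, -0.183 for Car1 and -0.0728 for Car8. For list medians the difference was 1.57 for skeletal muscle, 1.07 for erythroid, 0.235 for ureteric mesenchyme and smooth muscle, 0.204 for hypoxia targets, 0.141 for endothelium, 0.135 for urothelial genes and -0.0289 for proton and lactate exporters. Opposite signs were found in 69.2% of all genes.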

How the results depend on the processing

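Car3 kept its sign under each alternative, with means from -1.18 to -1.17, and from -1.51 to -0.83 when 1 replicate was left out. Its ratios on the single arrays moved more than its mean. With median centring they were -0.60 on replicate 1, close to the 1.5-fold limit, and -1.74 on replicate 2. Of the other 9 members, 8 kept the sign of their mean under each full alternative, and Car1, near 0, ran from -0.022 to 0.0042. The median over probes moved Car8 to -0.10. The members at least 1.5-fold the same way were 1 under each full alternative, and 1 to 2 when a replicate was left out, since Car2 passed alone on replicate 2. Over all genes such a count was 40, against 88 with the deposited processed log ratios, 85 with the deposited series table, and 359 to 614 when a replicate was left out. Limma had 2 genes with adjusted p under 0.05 with the processed log ratios and 5 with an intensity trend and robust moderation.

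The adipocyte median of 0.0037 went to -0.029 with median centring, 0.020 with processed log ratios, -0.069 with the series table and -0.019 with all 4 spots of all channels well above background, and ran from -0.063 to -0.044 when a replicate was left out. The notochord and axial cartilage median of -0.14 went to -0.16 with median centring and -0.077 with no filter, and ran from -0.14 to -0.12 when a replicate was left out. The urothelial median of -0.029 went to -0.14 with the median over probes, and ran from -0.13 to 0.000091 when a replicate was left out. The proton and lactate exporter median ran from -0.0075 to 0.021 when a replicate was left out. The causes were not tested. Median centring also gave opposite signs on the arrays to Car10, Car7, Csf1r, Cx3cr1, Emcn, Fabp4, Higd1a, Pparg, Scnn1a and Slc9a2, as did the median over probes to Csf1r and Higd1a and the series table to Slc4a5. The median over probes put 3 members lower on both arrays, Car8 included. With 2 arrays, leaving out 1 gives a value with no test. No paired analysis was possible beyond the reported one, since each ratio already pairs both genotypes on 1 array. The dimmer probes of Car1 and Car4 were too near background for a ratio.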
